A study of Mus musculus with 5 samples.

Results

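Interferon gamma and tumor necrosis factor are a pair of cytokines made by immune cells, and 6 genes encode them and their receptor chains: Ifng, Ifngr1, Ifngr2, Tnf, Tnfrsf1a and Tnfrsf1b. These 6 of the 28692 genes listed were taken by symbol and followed in single-cell RNA sequencing of tumor-infiltrating white blood cells. The tumors were B16-F10, a mouse melanoma line, grown from 500000 cells injected under the skin and removed on day 11. Live CD45-positive cells were sorted and about 16000 cells entered each droplet run, in which transcripts were read from their 5′ ends. Each of 5 treatments gave 1 library. These were a protein that fuses an antibody against PD-1 to IL15 (fusion), that antibody given with an IL15 superagonist (combination), the IL15 superagonist alone, the antibody alone (anti-PD1), and the saline vehicle (PBS). For the combination, the title says superagonist and the tag says IL15. The labels' wording places treatment after removal of the tumors, so the time between treatment and sampling is not known here, nor is the number of mice behind each library. With 1 library per treatment, an effect of the treatment and a property of the library cannot be told apart, and no test between treatments was possible.

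Interferon gamma is the main cytokine by which T cells and natural killer (NK) cells act on macrophages and tumor cells. It binds Ifngr1, the ligand-binding chain, which signals only together with Ifngr2 through the kinases Jak1 and Jak2, and this raises antigen presentation, guanylate-binding proteins and the chemokines Cxcl9 and Cxcl10. Tumor necrosis factor, made by macrophages, monocytes and activated T cells, acts through Tnfrsf1a, found on most cells and able to trigger NF-kB signaling or cell death, and through Tnfrsf1b, which lacks a death domain and is known for its high level on regulatory T cells.

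On mm10, Ifng is a protein-coding gene at chr10:118441046-118445892 on the plus strand and Ifngr1 lies on the same chromosome at chr10:19591949-19610229, also on the plus strand. Ifngr2 is at chr16:91547072-91565623 on the plus strand, Tnf at chr17:35199381-35202007 on the minus strand, Tnfrsf1a at chr6:125349362-125362484 on the plus strand and Tnfrsf1b at chr4:145213463-145246870 on the minus strand. The 250 bases before the start of 4 of them are shown, from RefSeq on GRCm38.p6: both cytokines, and both interferon gamma receptor chains, of which Ifngr2 was near 0 in NK and CD8 T cells while Ifngr1 was measured in every class. All 6 members matched the promoter table. Each sequence runs 5′ to 3′ on the gene's strand, and capitals mark matches, on either strand, to TATAAA (a box bound by general transcription factors), GGAAA (the core bound by NFAT factors) and the NF-kB consensus.
Ifng (chr10:118440796-118441045): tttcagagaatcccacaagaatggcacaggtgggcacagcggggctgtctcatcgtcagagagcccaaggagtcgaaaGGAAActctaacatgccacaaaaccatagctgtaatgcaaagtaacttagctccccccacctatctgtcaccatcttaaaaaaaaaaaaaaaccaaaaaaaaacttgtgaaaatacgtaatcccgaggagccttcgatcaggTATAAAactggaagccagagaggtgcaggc
Tnf (chr17:35202008-35202257): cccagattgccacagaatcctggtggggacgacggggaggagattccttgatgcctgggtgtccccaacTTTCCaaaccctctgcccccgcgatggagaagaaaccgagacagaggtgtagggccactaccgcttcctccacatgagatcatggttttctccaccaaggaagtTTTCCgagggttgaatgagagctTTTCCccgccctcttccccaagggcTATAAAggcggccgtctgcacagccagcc
Ifngr1 (chr10:19591699-19591948): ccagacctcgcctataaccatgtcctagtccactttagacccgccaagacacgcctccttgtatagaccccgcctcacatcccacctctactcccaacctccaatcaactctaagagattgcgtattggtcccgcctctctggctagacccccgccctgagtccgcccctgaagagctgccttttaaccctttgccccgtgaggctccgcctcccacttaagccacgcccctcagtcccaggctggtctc
Ifngr2 (chr16:91546809-91547058): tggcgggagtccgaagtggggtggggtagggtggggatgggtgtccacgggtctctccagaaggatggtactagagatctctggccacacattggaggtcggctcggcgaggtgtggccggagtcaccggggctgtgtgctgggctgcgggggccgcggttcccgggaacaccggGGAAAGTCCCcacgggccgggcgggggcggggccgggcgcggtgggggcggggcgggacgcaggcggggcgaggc
The promoters of both cytokines held 1 TATAAA each, which 12.4% of 32851 mouse promoters of the same length hold, and none of the 4 receptor promoters did. GGAAA occurred once before Ifng and at 3 places before Tnf, against 55.6% of all promoters with at least 1. The promoter of Ifngr2 held 1 match to the NF-kB consensus, found in 3.90% of promoters, which overlaps its single GGAAA. No member held TGANTCA (AP-1, 6.75% of promoters) or GGTGTGA (T-box, 3.33%) in this window. Before Ifngr2 there were 25 CpG dinucleotides and a GC content of 74.0%, against 11 and 59.2% before Ifngr1 and 6 and 45.2% before Ifng. These matches describe letters in the window and do not show binding.

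After filters on genes and mitochondrial UMIs, 37074 cells remained, of which 32710 fell into 16 classes set by marker genes. A class name below stands for the cells that passed that gate. Median UMIs per barcode were 7851 in fusion, 4933 in combination, 4279 in IL15 superagonist, 5667 in anti-PD1 and 4498 in PBS, and of 36311 different barcodes 757 occurred in more than 1 library. The CD8 T class held 5626, 2864, 1734, 973 and 843 cells in fusion, combination, IL15 superagonist, anti-PD1 and PBS, and the NK class 218, 837, 957, 438 and 175. Lyz2, a myeloid marker, was at 5.73 CPM in CD8 T cells, 16.3 CPM in NK cells, 21.5 CPM in gamma-delta T cells and 22.6 CPM in B cells, against 8244 CPM in macrophages. In NK cells the T-cell marker Cd3e was at 5.08 CPM, against 1070 CPM in CD8 T cells, and Trac at 38.0 CPM with a UMI in 14.1% of cells, against 319 CPM. In the myeloid gates, the macrophage marker C1qa had a UMI in 29.5% of cDC1 and 15.1% of neutrophil cells, against 87.4% of macrophages. Levels are UMIs of a gene per 1000000 UMIs of the class (CPM), so levels of different genes are not compared, and brackets hold exact 95% intervals that cover counting error only.

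Ifng UMIs came almost only from T and NK cells, and in CD8 T cells its level was highest in the anti-PD1 library and lowest in the fusion library. In CD8 T cells Ifng was at 82.0 CPM in fusion, 143 CPM in combination, 169 CPM in IL15 superagonist, 210 CPM in anti-PD1 and 107 CPM in PBS, from 4543, 2649, 1705, 1513 and 591 UMIs. The anti-PD1 level was 1.95-fold that of PBS (1.77 to 2.15), IL15 superagonist 1.57-fold (1.43 to 1.73) and combination 1.33-fold (1.22 to 1.46). The fusion level was 1.31-fold lower than in PBS (1.20 to 1.43) and 1.75-fold lower than in combination (1.66 to 1.83). T and NK classes together held 97.8% to 99.9% of the Ifng UMIs of a library, and CD8 T cells alone 91.9% in fusion, 81.9% in combination, 72.1% in IL15 superagonist, 73.1% in anti-PD1 and 82.3% in PBS. CD8 T cells were 74.6%, 37.5%, 29.3%, 15.1% and 16.3% of classed cells in the same order. Ifng UMIs per 1000 classed cells were 656 in fusion, 424 in combination, 400 in IL15 superagonist, 320 in anti-PD1 and 139 in PBS, a measure that also follows depth, which was highest in fusion. Over the UMIs of all classed cells, the level was 73.2 CPM in fusion, 68.7 CPM in combination, 69.3 CPM in IL15 superagonist, 47.9 CPM in anti-PD1 and 25.1 CPM in PBS, with PBS lowest.

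A few cells carried much of this Ifng. The CD8 T cell with most Ifng held 574 of the 4543 UMIs in fusion (12.6%), 165 in combination (6.23%), 399 in IL15 superagonist (23.4%), 152 in anti-PD1 (10.1%) and 166 in PBS (28.1%). Without the top cell of each library the levels were 71.6 CPM in fusion, 134 CPM in combination, 129 CPM in IL15 superagonist, 189 CPM in anti-PD1 and 77.3 CPM in PBS. With at most 10 UMIs counted per cell they were 60.1, 81.4, 80.2, 115 and 74.3 CPM, so that combination and IL15 superagonist came within 1.10-fold and 1.08-fold of PBS while anti-PD1 stayed 1.55-fold higher. After every cell was thinned to 2000 UMIs, a UMI of Ifng was seen in 8.82% of CD8 T cells in fusion (8.09 to 9.59), 8.80% in combination (7.79 to 9.90), 8.08% in IL15 superagonist (6.84 to 9.46), 13.3% in anti-PD1 (11.2 to 15.6) and 9.26% in PBS (7.36 to 11.5). Anti-PD1 was highest, with an interval clear of fusion, combination and IL15 superagonist that just overlapped that of PBS. Without thinning, the shares were 25.9%, 18.4%, 16.2%, 27.7% and 20.4%, with median depths of 8610, 4911, 4476, 6065 and 5448 UMIs per CD8 T cell. Macrophages, which should lack Ifng, had a UMI in 0.287%, 0.248%, 0.424%, 0.490% and 0.00% of cells unthinned, where 0 of 1105 PBS macrophages allows a share of up to 0.271% by a limit of 3 counts.

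**Figure D1:**
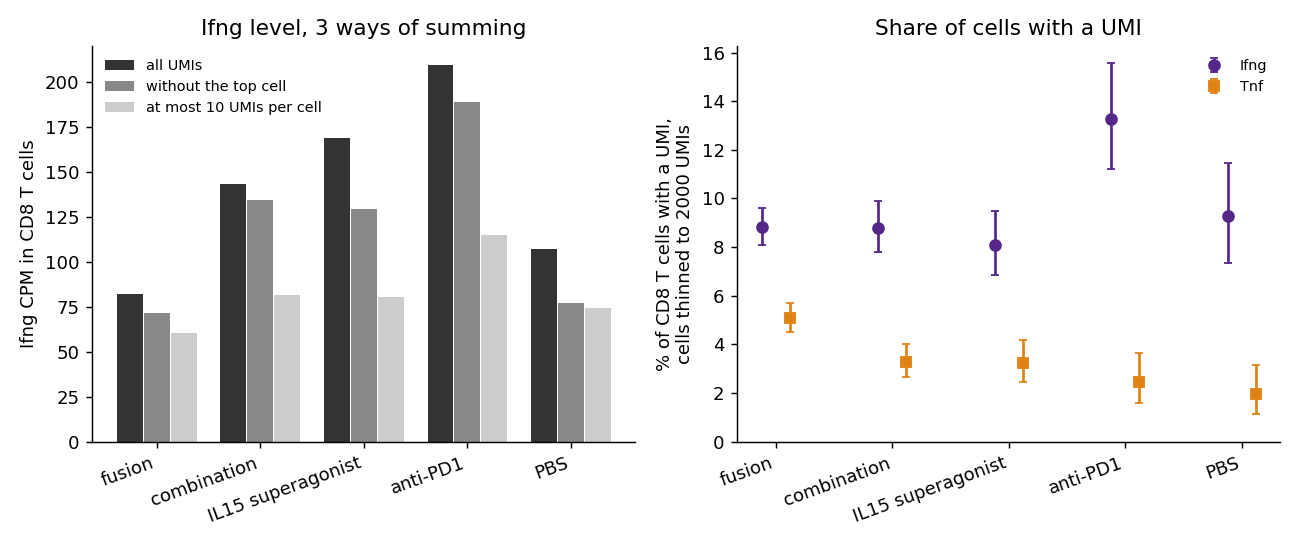
Left, Ifng level in CD8 T cells (CPM, linear axis) for the 5 libraries, summed over all UMIs, without the cell with most Ifng, and with at most 10 UMIs counted per cell. Right, the percent of CD8 T cells with a UMI of Ifng or Tnf after thinning to 2000 UMIs, with exact 95% intervals; anti-PD1 is highest for Ifng at 13.3%, and fusion is highest for Tnf at 5.08%.

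CD8 T cells were also split by the markers they carried. Among CD8 T cells with a UMI of Havcr2, which encodes the inhibitory receptor Tim-3, thinned shares with Ifng were 12.1% in fusion, 15.5% in combination, 20% in IL15 superagonist, 21.0% in anti-PD1 and 12.95% in PBS, with the marker read from the same thinned UMIs. Among those without it they were 8.32%, 8.08%, 6.95%, 11.5% and 8.50%, lower in 5 of 5 libraries, with intervals that overlapped in PBS (7.86 to 19.7 with, 6.52 to 10.9 without) and not in the other 4. Tcf7, a transcription factor of stem-like T cells, went the other way: cells with a UMI of it had Ifng in 4.32%, 3.74%, 1.72%, 2.70% and 7.32% of cases, against 8.93%, 9.56%, 9.68%, 14.6% and 9.36% of those without. These intervals overlapped in fusion (1.60 to 9.16 with, 8.19 to 9.72 without) and in PBS, where only 41 cells had Tcf7. The split by Pdcd1, which encodes PD-1, had no common direction: shares with Ifng were 8.31%, 10.9%, 11.6%, 13.5% and 9.81% with it, against 10.5%, 6.63%, 5.17%, 12.9% and 8.69% without, and the intervals were apart only in combination and IL15 superagonist. In fusion the summed level of Tcf7-bearing cells was 279 CPM with their top cell and 55.3 CPM without it, against 72.4 and 70.6 CPM in cells without Tcf7. Cycling cells, with a UMI of Mki67 or Top2a, had Ifng at 8.91%, 12.9%, 10.0%, 14.9% and 8.96%, against 8.75%, 8.30%, 7.87%, 12.8% and 9.36% in the others. The intervals of that split overlapped in 5 of 5 libraries.

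By summed UMIs NK cells had a lower Ifng level than CD8 T cells in every library, but not by the share of cells with Ifng. Their levels were 53.8 CPM in fusion (41.6 to 68.6), 60.4 CPM in combination (52.6 to 69.0), 95.9 CPM in IL15 superagonist (86.3 to 106), 69.0 CPM in anti-PD1 (57.3 to 82.3) and 42.3 CPM in PBS (27.4 to 62.4). IL15 superagonist was 2.27-fold above PBS (1.51 to 3.55) and anti-PD1 1.63-fold (1.06 to 2.62), while the intervals for combination (0.942 to 2.26) and fusion (0.792 to 2.11) included equal levels. The NK cell with most Ifng held 3 to 18 UMIs. Thinned shares of NK cells with Ifng were 10.55% in fusion (6.81 to 15.4), 9.32% in combination (7.44 to 11.5), 12.05% in IL15 superagonist (10.06 to 14.3), 8.45% in anti-PD1 (6.02 to 11.5) and 7.74% in PBS (4.06 to 13.1). These were above the CD8 T shares in 3 of 5 libraries, with intervals apart only in IL15 superagonist. There the CD8 T level was 80.2 CPM with at most 10 UMIs counted per cell. The NK level of 95.9 CPM was higher but is a sum without that limit, in which 4 cells with 10 or more UMIs held 14.95%. The other T class, T cells that met none of the finer gates, had 54.0, 48.2, 58.0, 194 and 30.4 CPM, but 272 of the 379 UMIs in anti-PD1 came from 1 cell, without which that level was 55.0 CPM. CD4 T cells, compared only where at least 50 cells were found, had 181 CPM in combination, 72.2 CPM in IL15 superagonist, 15.7 CPM in anti-PD1 and 129 CPM in PBS, from 105, 22, 6 and 44 UMIs. Regulatory T cells (Treg) were at 17.1 CPM in combination, 5.37 CPM in anti-PD1 and 17.9 CPM in PBS, and gamma-delta T cells at 16.9 CPM in combination and 12.8 CPM in IL15 superagonist. In macrophages the level was 0 to 3.30 CPM and in monocytes 0 to 1.59 CPM.

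**Figure D2:**
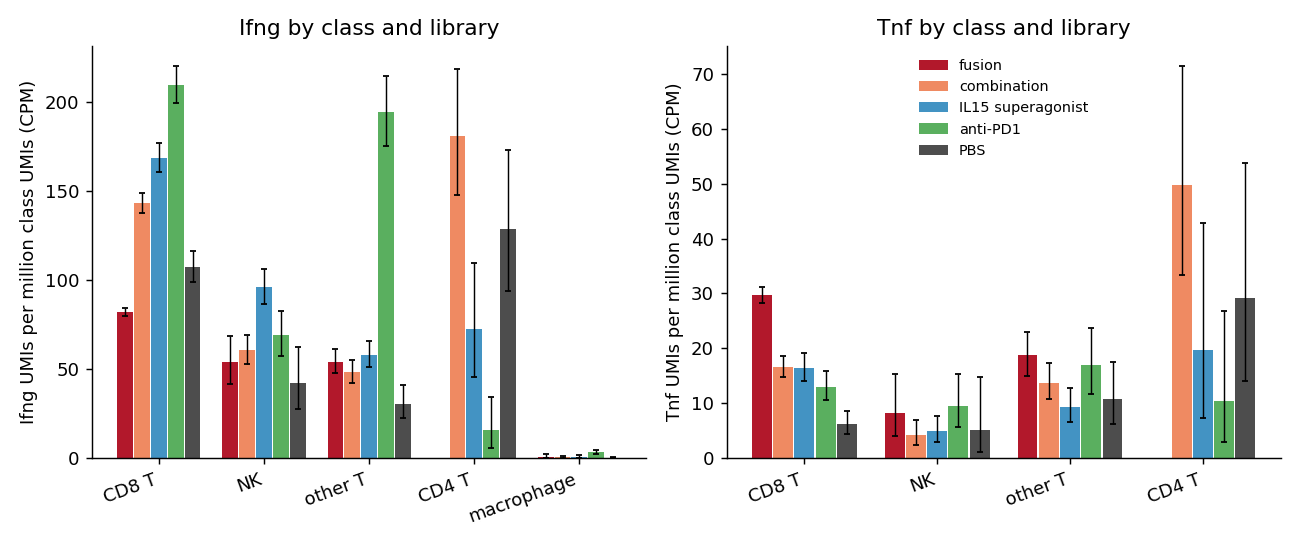
Ifng (left) and Tnf (right) in lymphoid classes, with macrophages as the background for Ifng, in CPM on linear axes, for the 5 libraries; bars are sums over a class and lines exact 95% Poisson intervals. CD4 T cells of fusion are not shown for want of 50 cells, the tall Ifng bar of other T cells in anti-PD1 (194 CPM) rests on 1 cell, and Tnf in CD8 T cells is highest in fusion at 29.7 CPM.

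Tnf in CD8 T cells ran in another order from Ifng, with fusion highest and PBS lowest. Its level was 29.7 CPM in fusion (28.3 to 31.2), 16.6 CPM in combination (14.8 to 18.6), 16.4 CPM in IL15 superagonist (14.0 to 19.1), 13.02 CPM in anti-PD1 (10.5 to 15.9) and 6.17 CPM in PBS (4.28 to 8.63), where PBS rests on 34 UMIs. Fusion was 4.82-fold above PBS (3.43 to 6.98), combination 2.69-fold (1.89 to 3.96), IL15 superagonist 2.66-fold (1.83 to 3.97) and anti-PD1 2.11-fold (1.41 to 3.22). Fusion was also 1.79-fold above combination (1.58 to 2.03). Unlike Ifng, Tnf was spread out: the cell with most held 11, 8, 5, 6 and 2 UMIs. Thinned shares of CD8 T cells with Tnf were 5.08% in fusion (4.52 to 5.69), 3.28% in combination (2.66 to 4.00), 3.23% in IL15 superagonist (2.45 to 4.18), 2.47% in anti-PD1 (1.59 to 3.65) and 1.95% in PBS (1.12 to 3.15); only the fusion interval stood clear of the others. The level after thinning gave smaller ratios to PBS than the summed UMIs of all cells, at 2.61 in fusion, 1.804 in combination, 1.70 in IL15 superagonist and 1.34 in anti-PD1, in the same direction. These 4 ratios share the thinned PBS value, where 16 of 821 cells had Tnf. Averaged over cells without thinning, the ratios were 4.29, 2.34, 2.30 and 2.07. Myeloid transcripts were set beside it as a measure of free RNA. In fusion Tnf in CD8 T cells was at 6.16% of its macrophage level, whereas Cxcl2, a chemokine of activated myeloid cells, was at 0.0935% and Lyz2 at 0.0372% of theirs. In PBS the same shares were 2.84%, 0.293% and 0.0843%. Only macrophages were used as the reference for these shares, and the part of free RNA in the Tnf of CD8 T cells was not tested.

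Other lymphoid classes varied in Tnf, with the lowest median over libraries in NK cells (5.07 CPM). NK cells were at 8.28, 4.17, 4.95, 9.53 and 5.07 CPM in fusion, combination, IL15 superagonist, anti-PD1 and PBS, from 3 to 19 UMIs, and their intervals overlapped. The other T class was at 18.7, 13.7, 9.30, 16.9 and 10.8 CPM. Treg cells reached 32.6 CPM in combination (20.2 to 49.8), against 7.16 CPM in anti-PD1 and 7.46 CPM in PBS. CD4 T cells were at 49.9 CPM in combination, 19.7 CPM in IL15 superagonist, 10.5 CPM in anti-PD1 and 29.2 CPM in PBS, from 29, 6, 4 and 10 UMIs. That was above the CD8 T level in combination, IL15 superagonist and PBS and below it in anti-PD1. Joint detection in thinned CD8 T cells showed how far both cytokines came from the same cells. In fusion 8.47% of Ifng-bearing cells had Tnf (6.17 to 11.3), against 4.76% of cells without Ifng (4.19 to 5.38), and in IL15 superagonist 8.57% (4.51 to 14.5) against 2.76% (2.01 to 3.69). The intervals overlapped in combination (4.76% against 3.14%), anti-PD1 (2.33% against 2.49%) and PBS (3.95% against 1.75%), where 12, 3 and 3 cells had both. Most Tnf-bearing CD8 T cells had no Ifng UMI at this depth: 14.7% had one in fusion, 12.8% in combination, 21.4% in IL15 superagonist, 12.5% in anti-PD1 and 18.8% in PBS.

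Most Tnf of the infiltrate came from myeloid cells, and there too fusion was highest. Macrophages had 483 CPM in fusion (456 to 511), 321 CPM in combination (308 to 335), 259 CPM in IL15 superagonist (246 to 272), 256 CPM in anti-PD1 (247 to 265) and 217 CPM in PBS (207 to 229). Monocytes had 776 CPM in fusion (734 to 821), 344 CPM in combination (329 to 359), 429 CPM in IL15 superagonist (410 to 449), 285 CPM in anti-PD1 (274 to 295) and 212 CPM in PBS (200 to 224). Fusion was therefore 2.22-fold above PBS in macrophages (2.06 to 2.40) and 3.66-fold in monocytes (3.38 to 3.97), and 1.503-fold (1.40 to 1.61) and 2.26-fold (2.103 to 2.42) above combination. With at most 10 UMIs counted per cell, macrophage levels were 314, 248, 213, 202 and 196 CPM and monocyte levels 435, 268, 289, 222 and 198 CPM, a smaller gap in the same order for fusion and PBS. The thinned share of macrophages with Tnf was 36.2% in fusion (31.2 to 41.5), 35.1% in combination (31.8 to 38.5), 31.1% in IL15 superagonist, 25.96% in anti-PD1 and 26.5% in PBS (23.9 to 29.2), so that fusion and combination overlapped. Nonclassical monocytes, which patrol vessels, had 542, 332, 319, 415 and 305 CPM. Neutrophils, found in 50 or more cells in 4 libraries, had 861 CPM in combination, 283 CPM in IL15 superagonist, 585 CPM in anti-PD1 and 416 CPM in PBS; without cells that also passed the macrophage gate, combination was at 847 CPM, anti-PD1 at 639 CPM and PBS at 505 CPM. Conventional dendritic cells were lower, at 53.6 to 87.3 CPM in cDC1 and 33.9 to 63.6 CPM in cDC2. Without cells that passed the macrophage gate, cDC1 was at 22.8 CPM in combination, 16.2 CPM in IL15 superagonist, 40.1 CPM in anti-PD1 and 10.7 CPM in PBS, against 61.0, 73.6, 87.3 and 53.6 CPM with them. T and NK classes held 35.9% of all Tnf UMIs of classed cells in fusion, 7.65% in combination, 5.53% in IL15 superagonist, 1.92% in anti-PD1 and 1.95% in PBS. Macrophages and monocytes were 348 and 252 cells in fusion, against 1105 and 1200 in PBS, and over the UMIs of all classed cells Tnf was at 73.0, 123, 127, 183 and 122 CPM, lowest in fusion.

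**Figure D3:**
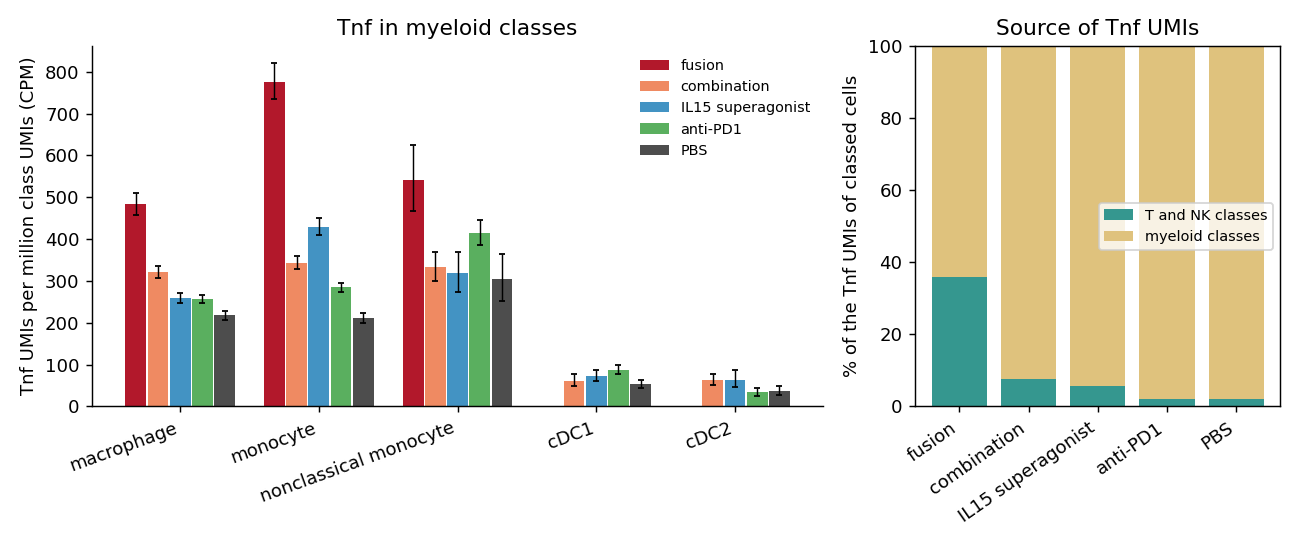
Left, Tnf in 5 myeloid classes (CPM, linear axis) by library, with exact 95% Poisson intervals; dendritic cells of fusion are not shown for want of 50 cells. Right, the percent of the Tnf UMIs of classed cells that came from T and NK or myeloid classes; the T and NK share was 35.9% in fusion and at most 7.65% in the other libraries.

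Ifngr1 was measured in every class and was highest in T and NK classes, whereas Ifngr2 was near 0 in NK and CD8 T cells. By the median over libraries, Ifngr1 ran from gamma-delta T (1804 CPM), NK (1394 CPM), CD4 T (1248 CPM), other T (1133 CPM), Treg (1087 CPM) and CD8 T (531 CPM) through nonclassical monocytes (510 CPM), cDC2 (315 CPM), neutrophils (271 CPM), monocytes (231 CPM) and cDC1 (189 CPM) to other myeloid cells (154 CPM), macrophages (145 CPM), mature dendritic cells (133 CPM), B cells of PBS (120 CPM) and plasmacytoid dendritic cells (77.3 CPM). The ranges over libraries of neighbours in this order overlapped, except between nonclassical monocytes and cDC2 and between B cells and plasmacytoid dendritic cells. Gamma-delta T cells were measured in only 2 libraries, combination (1824 CPM) and IL15 superagonist (1785 CPM), so their first place rests on these. NK cells were above them in IL15 superagonist (1910 CPM) and below them in combination. Ifngr2 was highest in myeloid classes, at medians of 156 CPM in nonclassical monocytes, 146 CPM in monocytes and 125 CPM in macrophages, 54.7 CPM in B cells of PBS, the only library with 50 of them, 3.05 CPM in CD8 T and 0.561 CPM in NK cells. Among 2625 NK cells there were 9 UMIs of Ifngr2 and 18159 of Ifngr1. Ifngr2 gave 0 of the UMIs of both chains in NK cells of fusion and PBS and at most 0.0621% in the other libraries. In CD8 T cells its share was 0.381% in fusion, 0.639% in combination, 1.26% in IL15 superagonist, 0.570% in anti-PD1 and 0.537% in PBS, and in macrophages 46.3%, 42.6%, 45.2%, 48.1% and 50.9%. The share depends on how well each chain is captured, so it is compared between classes and not read as a ratio of proteins. A UMI of both chains was seen in 0.249% to 2.83% of thinned CD8 T cells, in 5.00% to 7.78% of macrophages and in 14.2% to 25.4% of nonclassical monocytes.

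In CD8 T and NK cells Ifngr1 was higher in the libraries given the free IL15 superagonist. In CD8 T cells it was at 519 CPM in fusion (513 to 525), 856 CPM in combination (843 to 869), 953 CPM in IL15 superagonist (934 to 972), 531 CPM in anti-PD1 (515 to 548) and 471 CPM in PBS (453 to 489). NK cells had 971 CPM in fusion, 1790 CPM in combination, 1910 CPM in IL15 superagonist, 1394 CPM in anti-PD1 and 1243 CPM in PBS. Combination and IL15 superagonist stood above the other 3 libraries in both classes, and fusion was lowest in NK cells. Combination exceeded PBS in 8 of 8 classes where each library had 100 cells or more, by 1.27-fold in cDC2 to 1.88-fold in other T cells, and IL15 superagonist in 6 of 6, by 1.04-fold in cDC1 to 2.08-fold in other T cells. Not every class followed this order. Other myeloid cells, too few for these ratios, had their lowest level in IL15 superagonist (126 CPM) and their highest in PBS (214 CPM). The cDC1 level was highest in anti-PD1 (200.5 CPM). Fusion was below combination in 5 of 5 classes, by 1.13-fold in macrophages to 1.92-fold in other T cells. Against PBS, fusion ranged from 1.28-fold lower in NK cells (1.17 to 1.41) to 1.16-fold higher in macrophages (1.02 to 1.31). Within the CD8 T class, the summed level of Ifngr1 was higher in cells with a UMI of Tcf7 than in those without in 5 of 5 libraries: 740 against 509 CPM in fusion, 1243 against 774 CPM in combination, 1329 against 835 CPM in IL15 superagonist, 776 against 495 CPM in anti-PD1 and 638 against 462 CPM in PBS. After thinning, the share of cells with Ifngr1 was higher with Tcf7 in fusion (82.0% against 62.9%), combination (89.8% against 75.3%), IL15 superagonist (89.4% against 79.5%) and anti-PD1 (81.1% against 59.7%), while in PBS it was 63.4% against 63.1%. Cells with Pdcd1 had a lower summed level than those without in 5 of 5 libraries, but were deeper (median of 8880 against 4512 UMIs in fusion). Their thinned shares with Ifngr1 were lower only in combination (72.8% against 81.6%) and IL15 superagonist (76.8% against 85.3%), and had overlapping intervals in fusion (64.2% against 60.7%), anti-PD1 (61.9% against 62.6%) and PBS (63.9% against 62.3%). Ifngr2 in macrophages differed little, at 125, 121, 126, 125 and 130 CPM. In CD8 T cells it was at 1.99 CPM in fusion, 5.51 CPM in combination, 12.2 CPM in IL15 superagonist, 3.05 CPM in anti-PD1 and 2.54 CPM in PBS, so IL15 superagonist was 4.78-fold above PBS (2.75 to 9.01), from 123 and 14 UMIs. CD8 T cells with Tcf7 had Ifngr2 at 37.65 CPM in IL15 superagonist (30.3 to 46.2, 519 cells) and 35.25 CPM in PBS (16.9 to 64.8, 65 cells). Those without Tcf7 had 4.16 CPM (2.84 to 5.87, 1215 cells) and 0.766 CPM (0.209 to 1.96, 778 cells), from 32 and 4 UMIs. The part of the share of Tcf7-bearing cells in the ratio was not tested.

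**Figure D4:**
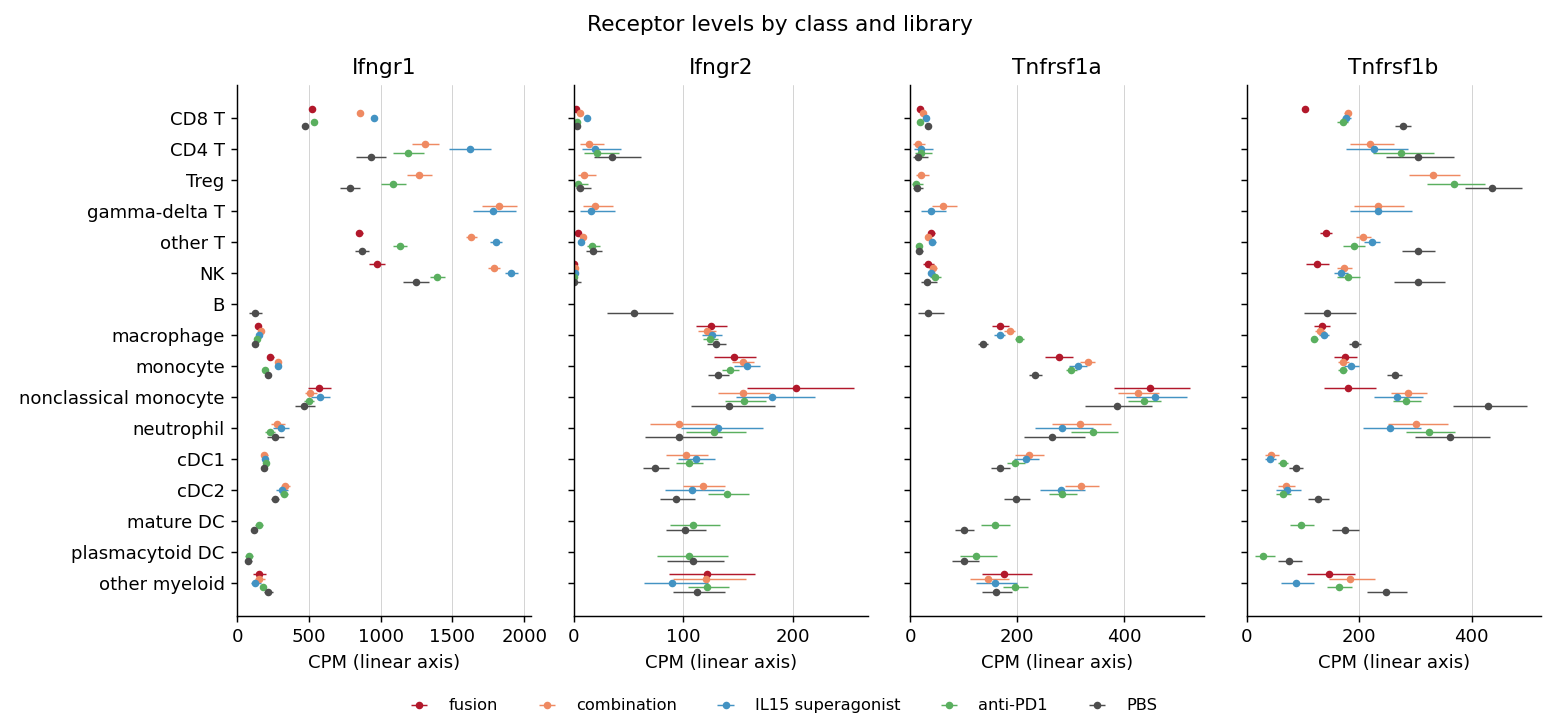
Levels of the 4 receptor genes (CPM, linear axes that differ between panels) in each class of at least 50 cells; points are libraries and lines exact 95% Poisson intervals. Ifngr1 is highest in T and NK classes and Ifngr2 in myeloid classes, Tnfrsf1a is higher in myeloid classes than in lymphoid ones, and Tnfrsf1b has its highest point in PBS in 14 of 14 classes with another library.

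Tnfrsf1a was higher in myeloid than in lymphoid classes. Tnfrsf1a had medians over libraries of 436 CPM in nonclassical monocytes, 301 CPM in monocytes, 300 CPM in neutrophils, 283 CPM in cDC2, 207 CPM in cDC1 and 168 CPM in macrophages, against 39.3 CPM in NK, 23.7 CPM in CD8 T and 11.9 CPM in Treg cells. The ranges of monocytes, neutrophils and cDC2 overlapped. In macrophages it was at 168 CPM in fusion, 186 CPM in combination, 167 CPM in IL15 superagonist, 204 CPM in anti-PD1 and 136 CPM in PBS, and in monocytes at 277, 332, 313, 301 and 234 CPM. PBS was lowest in both. CD8 T cells were at 18.4, 23.7, 28.9, 18.6 and 33.4 CPM, where the interval of IL15 superagonist overlapped that of PBS. Thinned shares of CD8 T cells with Tnfrsf1a were 3.82%, 5.20%, 6.17%, 4.93% and 5.48%, highest in IL15 superagonist. Fusion was 1.24-fold above PBS in macrophages (1.10 to 1.39) and 1.82-fold below it in CD8 T cells (1.54 to 2.13).

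By the median over libraries Tnfrsf1b was highest in Treg cells. In 14 of 14 classes measured in PBS and another library it was highest in PBS. Treg cells had 332 CPM in combination, 369 CPM in anti-PD1 and 436 CPM in PBS, and the medians of neutrophils (313 CPM), nonclassical monocytes (284 CPM) and CD4 T cells (250 CPM) followed, with overlapping ranges. Without cells that also passed the macrophage gate, neutrophils were at 350.5 CPM in combination, 365 CPM in anti-PD1 and 472 CPM in PBS. That was above Treg cells in combination and PBS and just below them in anti-PD1. CD8 T cells had 104 CPM in fusion (102 to 107), 180 CPM in combination (174 to 186), 177 CPM in IL15 superagonist (169 to 186), 170 CPM in anti-PD1 (161 to 180) and 277 CPM in PBS (264 to 292). NK cells had 124, 173, 168, 180 and 304 CPM and monocytes 175, 172, 186, 170 and 263 CPM. PBS was above the other libraries in all 3 of these classes, and fusion was lowest in CD8 T and NK cells. Every treated library was below PBS in each class compared: fusion in 5 of 5, by 1.44-fold in macrophages to 2.66-fold in CD8 T cells, combination in 8 of 8 (1.31-fold to 1.80-fold), IL15 superagonist in 6 of 6 (1.37-fold to 2.11-fold) and anti-PD1 in 10 of 10 (1.11-fold to 1.95-fold). These comparisons share the PBS library. Against anti-PD1, combination was within 0.802-fold to 1.09-fold in 9 classes, and fusion was at 0.613-fold in CD8 T cells. PBS also had the shallowest lower limit of UMIs per barcode, at 1751 against 2671 in fusion; its part in the result was not tested, but thinned shares of CD8 T cells with Tnfrsf1b were in the same order at both ends, 19.8% in fusion, 31.7% in combination, 31.9% in IL15 superagonist, 28.5% in anti-PD1 and 45.4% in PBS. Together, Tnfrsf1a gave 55.7%, 59.0%, 54.9%, 62.9% and 41.5% of the UMIs of both TNF receptors in macrophages, lowest in PBS, and 15.0%, 11.7%, 14.0%, 9.82% and 10.8% in CD8 T cells.

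The pathway genes were counted as past a 1.5-fold difference where both libraries together had at least 20 UMIs. The percent of all such genes that passed is given once for each class and comparison, as the share to set beside every count. At a fold of 2 the share of all genes was not counted, so counts at that fold have no such share beside them. In CD8 T cells 17.8% of 11794 genes were higher and 28.2% lower in fusion than in PBS, 12.6% and 19.2% in combination, 15.4% and 19.8% in IL15 superagonist, and 7.76% and 11.5% in anti-PD1; fusion over combination gave 13.8% and 17.8%. The median log2 ratio of all genes was within 0.1 of 0 in the comparisons described except fusion over PBS in CD8 T cells (-0.11) and in macrophages (-0.14) and combination over PBS in macrophages (-0.12).

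Among interferon gamma target genes in CD8 T cells, 11 of 19 were past the fold on the higher side in IL15 superagonist and 8 of 19 in combination, and 11 of 20 were lower in fusion than in combination. Of 22 listed, 19 could be counted in IL15 superagonist, of which 11 were higher and 1 lower (median log2 ratio 0.71), and in combination, with 8 higher and 1 lower (0.51); in anti-PD1 5 of 19 were higher and 0 lower (0.40). In fusion 2 of 20 were higher and 6 lower than in PBS (-0.24), and 1 was higher and 11 lower than in combination (-0.76). At a fold of 2, the higher targets were 6 in IL15 superagonist and 4 in combination, and 8 were lower in fusion than in combination. Igtp and Gbp2, GTPases that act against pathogens inside cells, were at 30.6 and 16.6 CPM in fusion and 110 and 59.4 CPM in combination, which is 3.61-fold (3.38 to 3.85) and 3.58-fold lower (3.27 to 3.91). Iigp1 was 5.37-fold lower (3.91 to 7.43) and Gbp5 3.45-fold (2.86 to 4.18). Of the 9 signaling genes, 5 were lower and 0 higher in fusion than in combination. Among them Irf1, a transcription factor induced by interferons, was at 81.0 against 206 CPM, Jak2 at 18.1 against 44.0 CPM and Jak1 at 229 against 407 CPM. Against PBS these 9 had 1 higher and 2 lower in fusion, 3 and 1 in combination, 5 and 1 in IL15 superagonist, and 0 and 0 in anti-PD1; at a fold of 2 the higher ones were 0 in combination and 3 in IL15 superagonist, and 3 were lower in fusion than in combination. Of 13 genes that drive Ifng, 6 were lower and 0 higher in fusion than in combination. Against PBS, 13 were counted in fusion and 12 in the other libraries, beside the shares of all genes given above. Of these, 2 were higher and 3 lower in fusion, 2 and 2 in combination, 3 and 2 in IL15 superagonist, and 1 and 2 in anti-PD1. At a fold of 2, 1 of the 6 was lower in fusion than in combination. Eomes, a T-box factor of effector T cells, was at 23.2 CPM in fusion, 55.2 CPM in combination, 45.6 CPM in IL15 superagonist, 59.1 CPM in anti-PD1 and 89.5 CPM in PBS, and Irf4, Batf and Stat4 were 1.79-fold, 1.74-fold and 1.70-fold lower in fusion than in combination. Il12rb2, a chain of the receptor for interleukin 12, was at 58.5 CPM in fusion, 60.0 CPM in combination, 79.5 CPM in IL15 superagonist, 38.2 CPM in anti-PD1 and 10.5 CPM in PBS.

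Of the counted genes that respond to TNF in CD8 T cells, 10 of 13 were lower in fusion than in combination, while the Tnf level was highest in fusion. Of 15 listed, 6 of 12 were higher and 0 lower in combination than in PBS, 5 of 11 higher and 0 lower in IL15 superagonist, and 3 of 11 higher and 0 lower in anti-PD1. Fusion had 2 of 12 higher and 6 lower than PBS, and 0 of 13 higher and 10 lower than combination (median log2 ratio -0.93), of which 5 were lower at a fold of 2. With at least 100 UMIs, fusion had 0 of 10 higher and 6 lower than PBS, and 0 of 11 higher and 8 lower than combination. Against PBS, 4 of 10 were then higher in combination, 4 of 10 in IL15 superagonist and 2 of 10 in anti-PD1, with 0 lower in each. The share of all genes was not counted at that minimum. Tnfaip3, which encodes the NF-kB inhibitor A20, was at 177 CPM in fusion, 459 CPM in combination, 454 CPM in IL15 superagonist, 434 CPM in anti-PD1 and 480 CPM in PBS. Nfkbia, another NF-kB inhibitor, was at 341 CPM in fusion, 652 CPM in combination, 669 CPM in IL15 superagonist, 494 CPM in anti-PD1 and 254 CPM in PBS. Cxcl2 and Il1b, counted in this list, are myeloid transcripts; Cxcl2 was at 5.79 CPM in CD8 T cells of fusion and 31.5 CPM in those of combination, or 0.0935% and 0.728% of the macrophage level, beside Lyz2 at 0.0372% and 0.0854%, and the part of free RNA in these 2 genes was not tested. Among genes of TNF making and release, Lta, which encodes the related cytokine lymphotoxin alpha, was at 22.6 CPM in fusion, 6.91 CPM in combination, 14.2 CPM in IL15 superagonist, 8.17 CPM in anti-PD1 and 2.72 CPM in PBS, with fusion highest as for Tnf. Zfp36l1, whose product destabilizes cytokine mRNAs, was at 79.3, 101, 146, 84.6 and 54.1 CPM in that order. Of 9 such genes counted, 1 was higher and 1 lower than in PBS in fusion, 4 and 0 in combination, 6 and 0 in IL15 superagonist, and 3 and 0 in anti-PD1. Among all genes in CD8 T cells, 17.8% were higher and 28.2% lower than in PBS in fusion and 12.6% and 19.2% in combination. In IL15 superagonist these shares were 15.4% and 19.8%, and in anti-PD1 7.76% and 11.5%. Beside them, the 15 genes that carry the TNF signal had 2 higher and 5 lower in fusion, 1 and 3 in combination, 2 and 3 in IL15 superagonist, and 0 and 0 in anti-PD1. At a fold of 2, 1 was higher and 3 lower in fusion, 1 and 0 in combination, and 0 and 0 in IL15 superagonist.

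In macrophages and monocytes, 13 of 21 interferon gamma targets were past the fold on the higher side in anti-PD1, and fewer in the other libraries. Among all genes in macrophages, 7.6% were higher and 20.6% lower in fusion than in PBS, 5.21% and 13.5% in combination, 7.95% and 9.03% in IL15 superagonist, and 6.54% and 12.6% in anti-PD1. Of the 21 targets counted there, 13 were higher and 0 lower in anti-PD1 (median log2 ratio 0.76), 9 higher and 0 lower in combination (0.55), 3 higher and 1 lower in fusion (0.21), and 2 higher and 1 lower in IL15 superagonist (0.11). In monocytes 13.6% of all genes were higher and 22.6% lower in fusion, 7.89% and 15.1% in combination, 10.0% and 14.7% in IL15 superagonist, and 8.74% and 12.1% in anti-PD1. Of the same 21 targets, 13 were higher and 0 lower in anti-PD1 (0.72), 10 higher and 0 lower in combination (0.43), 5 higher and 1 lower in fusion (0.28), and 5 higher and 2 lower in IL15 superagonist (0.08). At a fold of 2, the higher targets were 2 in fusion, 3 in combination, 1 in IL15 superagonist and 8 in anti-PD1 macrophages, and 2, 4, 3 and 7 in monocytes. Nos2, the inducible nitric oxide synthase of activated macrophages, was in macrophages at 67.8 CPM in fusion, 71.2 CPM in combination, 28.9 CPM in IL15 superagonist, 135 CPM in anti-PD1 and 16.2 CPM in PBS. In monocytes it was at 120 CPM in fusion, 33.1 CPM in combination, 27.5 CPM in IL15 superagonist, 126 CPM in anti-PD1 and 8.68 CPM in PBS. Gbp4 was 2.84-fold above PBS in macrophages of anti-PD1 (2.50 to 3.25) and 3.12-fold in monocytes (2.70 to 3.62). Cxcl9, which draws T cells, was at 393 CPM in monocytes of fusion, 756 CPM in combination, 709 CPM in IL15 superagonist, 904 CPM in anti-PD1 and 325 CPM in PBS. The anti-PD1 library, whose myeloid cells had most of these targets past the fold, was also the one with the highest Ifng level in CD8 T cells. Over the UMIs of all classed cells, however, its Ifng level was below those of fusion, combination and IL15 superagonist. The relation was not tested. TNF targets in the same cells were counted against PBS at 4 of 15 higher and 1 lower in fusion macrophages, 2 and 1 in combination, 2 and 0 in IL15 superagonist, and 4 and 2 in anti-PD1. In monocytes 5 were higher and 0 lower in fusion, 4 and 1 in combination, 4 and 0 in IL15 superagonist, and 3 and 2 in anti-PD1. At a fold of 2, 2 were higher in fusion macrophages and 1 in fusion monocytes. The macrophage count in fusion was led by Cxcl1, a neutrophil chemokine, at 271 CPM in fusion, 162 CPM in combination, 260 CPM in IL15 superagonist, 200 CPM in anti-PD1 and 77.7 CPM in PBS macrophages. Sod2, the mitochondrial superoxide dismutase, was at 524 CPM in fusion and 221 CPM in PBS macrophages.

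**Figure D5:**
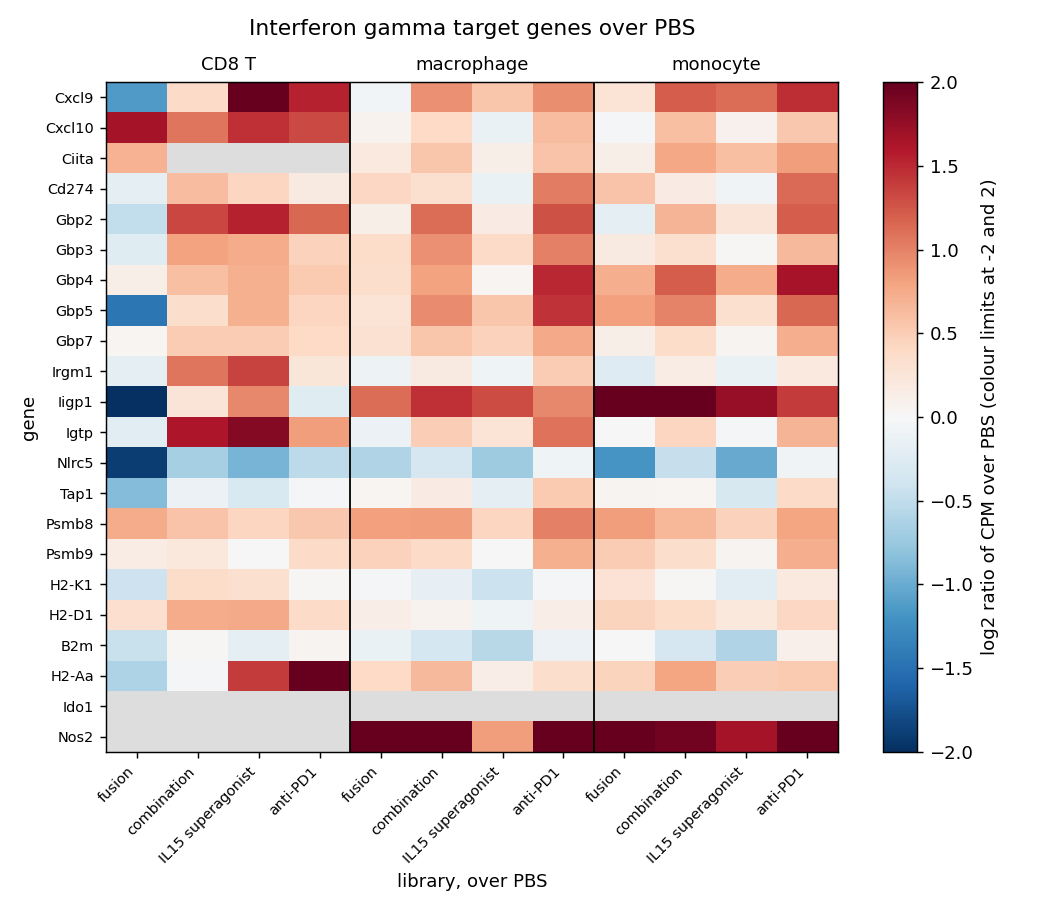
The log2 ratio of CPM over PBS for 22 interferon gamma target genes (rows) in CD8 T cells, macrophages and monocytes of the 4 treated libraries (columns); red is higher than in PBS, blue lower, grey had too few UMIs to count, and colours stop at -2 and 2. Most rows are red for anti-PD1 in macrophages and monocytes, where 13 of 21 genes were past 1.5-fold, while fusion in CD8 T cells has 6 of 20 genes past it on the lower side.

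For each member the genes whose level was most like it over pairs of class and library with at least 100 cells were listed by Pearson's r of log2(CPM + 1), as a description, since pairs of 1 library share their sequencing and depth. Over 22 pairs of 6 lymphoid classes, Ifng was most like Nrgn (r of 0.78), Ccl6, Fbxo21, Atp10a and Nt5m (0.72), and Tnf most like Lta (0.88), its neighbour in the TNF family, then Emp1, Sars2, Ccdc53 and Metap1d (0.78). Over 46 pairs of 16 classes, Ifngr1 was most like Prkch (0.93), Ms4a4b, Ppp1r12a, Abcb1a and Prkcq, Ifngr2 most like Nrros (0.94), Plekho1, Trib1, Sirpa and Csf2rb, Tnfrsf1a most like Acer3 (0.95), Nfe2l2, Sirpb1a, Tnfrsf21 and 1600010M07Rik, and Tnfrsf1b most like 2310001H17Rik (0.84), Tnip1, Tnfaip3 and Gm16062.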

How the data were processed

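The authors deposited raw UMI counts, 1 matrix for each library. Cell Ranger 2.1.1 and mm10 are named in the submitters' processing notes; how the authors filtered barcodes and which annotation they counted on are not known here. The members and gene lists were chosen with earlier results of these data known. Barcodes with at least 200 genes and at most 10% mitochondrial UMIs were kept (Python 3.11.15, scipy 1.17.1). Classes were marker gates of at least 2 genes and 3 UMIs; cells that passed gates of 2 lineages were removed as possible doublets, which were 11.8% of cells in fusion and 4.54% to 6.81% in the other libraries, and doublets within a lineage remain. No doublet caller was run. Of the fusion cells removed, 45.1% had a Lyz2 UMI, against 71.5% to 76.0% in the other libraries.

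UMIs were summed per class and library and divided by the UMIs of the class. Levels were given for at least 50 cells and ratios for at least 100 cells in both libraries, with exact Poisson, conditional binomial and Clopper-Pearson 95% intervals, and no test between treatments, since each has 1 library. Thinning to 2000 UMIs left out 20 cells of IL15 superagonist and 427 of PBS. Median log2 ratios add 0.5 to each count. Genes named from a list are at most 4 per class and comparison, those with the largest ratio past 1.5-fold in the direction most of the list has, and genes named for likeness are the 5 with the highest r among genes with at least 500 UMIs. Some genes that these rules name are not reported here. The ratios of summed UMIs were tested on simulated data with known ratios. The simulated counts were drawn as Poisson counts per gene. They therefore did not include UMIs gathered in a few cells, as seen for Ifng, and cannot show how the intervals hold there. Clusters for an alternative were made with scanpy 1.11.5 and igraph 0.11.9. The TATAAA motif, the levels without cells that passed the macrophage gate and the counts without the top cell or with at most 10 UMIs per cell were added after the data were seen. Positions are from GENCODE release M21.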

Additional observations from a re-analysis of the deposited data

Results flagged for a closer look

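Several members were past 1.5-fold from PBS in opposite directions in different classes of the same library, with intervals that exclude equal levels; the differences between classes were not tested. Ifng in anti-PD1 was 1.95-fold the PBS level in CD8 T cells, 1.63-fold in NK cells and 6.38-fold in other T cells, where 1 cell held 272 of 379 UMIs, but 0.122-fold in CD4 T cells, from 6 and 44 UMIs, of which 1 PBS cell held 22. Ifngr2 in IL15 superagonist was 4.78-fold the PBS level in CD8 T cells and 0.353-fold in other T cells, and in combination 2.17-fold and 0.482-fold. Among CD8 T cells with Tcf7, Ifngr2 was at 37.65 CPM in IL15 superagonist and 35.25 CPM in PBS, and among those without at 4.16 and 0.766 CPM. Tnfrsf1a in anti-PD1 was 1.501-fold the PBS level in macrophages and 0.555-fold in CD8 T cells, and in fusion 2.45-fold in other T cells and 0.551-fold in CD8 T cells. After thinning, the share of CD8 T cells with Tnfrsf1a was 4.93% in anti-PD1, 3.82% in fusion and 5.48% in PBS, a smaller gap to PBS for both libraries. The thinned share of macrophages was 32.5% in anti-PD1 and 21.9% in PBS, and that of other T cells 9.42% in fusion and 2.93% in PBS.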

How the results depend on the processing

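Of 130 recomputed ratios of Ifng and Tnf in CD8 T and NK cells, 101 moved by less than their counting interval, 29 moved by more, and 127 stayed on the same side of 1. After thinning to 2000 UMIs, Ifng in CD8 T cells was 0.8685 of PBS in fusion, 1.064 in combination and 1.31 in IL15 superagonist, and fusion was 0.8166 of combination. Averaged over cells these were 0.8387, 1.038, 1.306 and 0.8082. Without the top cell of each library, Ifng was 0.9266 of PBS in fusion, 1.738 in combination and 2.441 in anti-PD1, and fusion was 0.5333 of combination. With at most 10 UMIs per cell, it was 1.097 of PBS in combination, 1.08 in IL15 superagonist and 1.547 in anti-PD1, and fusion was 0.7382 of combination. Scaled by the trimmed mean of M values, fusion was 0.8752 of PBS and 0.6103 of combination. With mixed cells kept, fusion was 0.622 of combination for Ifng, and Tnf was 3.414 of PBS in fusion and 1.407 in anti-PD1. With classes from clusters, Ifng was 2.307 of PBS in CD8 T cells of anti-PD1, and in NK cells fusion was 0.5145 of combination, against 1.211 after thinning. Thinned, Tnf in CD8 T cells was 2.61 of PBS in fusion, 1.804 in combination, 1.7 in IL15 superagonist and 1.34 in anti-PD1, and fusion was 1.446 of combination. Averaged over cells without thinning, these Tnf ratios were 4.291, 2.343, 2.3, 2.069 and 1.832, all within their intervals. The causes of these shifts were not tested. Stricter gates and a mitochondrial limit of 5% left all 15 ratios within their intervals. Of 595 ratios of receptors and myeloid Tnf, 507 stayed within their interval and 571 on the same side of 1. Of 480 list counts under a fold of 2 or at least 100 UMIs, 323 stayed within 1.5 times and 157 moved by more, 122 of them under the fold of 2. Each treatment has 1 library. Tnf in PBS CD8 T cells (34 UMIs) and NK cells (3 UMIs) and Ifngr2 in lymphoid classes are limited by depth. No paired analysis was possible because each treatment has 1 library.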
